A study of Mus musculus with 8 samples.

Results

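The genes described here encode the proteins that license, fire and copy origins of DNA replication: 43 members in 7 roles, from origin recognition to the histone and methylation factors that travel with the fork. They were listed by name and role, with earlier results of these data known. A member was followed through probe sets whose only gene symbol in the array annotation was its own, with 1 probe set per gene, the one with the highest mean over the 8 arrays. By this rule 41 of the 43 members were measured among 12393 genes. *Gins2* and *Chaf1a* had no probe set of their own and are named only. The RNA came from IMCs, the CD11b+Gr-1+ immature myeloid cells of the spleen, of 4 *Tff2-null* (Tff2-/-) male C57BL/6 mice aged 16 weeks. The mice had drunk water with 3% DSS, which damages the gut lining, for 5 days and were killed after 14 further days on plain water. The sorted cells of a mouse were shared out to a pair of cultures kept for 7 days. One received GM-CSF, a growth factor of myeloid cells named Csf2 in the labels, at 5 nM together with 3 µM mouse recombinant TFF2 (rTFF2), and its partner received GM-CSF alone. The paper's methods give another GM-CSF concentration than the labels. All 8 cultures thus share the *Tff2* deletion and the DSS, no wild-type or untreated mouse is among them, and each group holds 4 cultures with 1 array each.

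A chromosome is copied once per cell cycle because loading of the replicative helicase and its activation are kept apart in time. In G1 the origin recognition complex, Cdc6 and Cdt1 load the ring-shaped MCM helicase onto DNA, a step called licensing, and geminin later blocks Cdt1. In S phase the Cdc7-Dbf4 kinase, Cdc45 and the GINS complex turn the loaded ring into a moving helicase, and polymerases, the sliding clamp, its loader and the single strand binding protein RPA follow. Many of these genes are transcribed ahead of S phase under E2F transcription factors. Myeloid precursors divide in answer to GM-CSF and stop as they mature.

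Most of the replication genes were lower with rTFF2, and none passed the test in the other direction. With mouse as a block in limma and Benjamini-Hochberg adjustment over all 22626 probe sets, 30 of 41 members (73.2%) fell, where 13.3% of all genes did, and 0 rose, where 14.5% of all genes did. At an unadjusted p under 0.05 the counts were 32 lower and 1 higher, against 2477 lower and 2387 higher among all 12393 genes. Without pairing by mouse they were 25 lower and 0 higher by adjusted p, against 1389 and 1531 among all genes. The median log2 fold change (rTFF2 cultures minus GM-CSF cultures) was -0.54 over the members and -0.03 over all genes. Among members that passed, log2 fold changes lay between -0.87 and -0.25, which is 1.83-fold to 1.19-fold lower with a median of 1.54-fold. By its main probe set no member reached a 2-fold change, though a further probe set of *Mcm7* did (2.10-fold lower). Each of the 30 falls was seen in 4 of 4 mice. In all, 32 members were lower in 4 of 4 mice, against 24.6% of all genes, and 24 had rTFF2 cultures that all lay under every GM-CSF culture, against 13.8% of all genes.

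**Figure D1:**
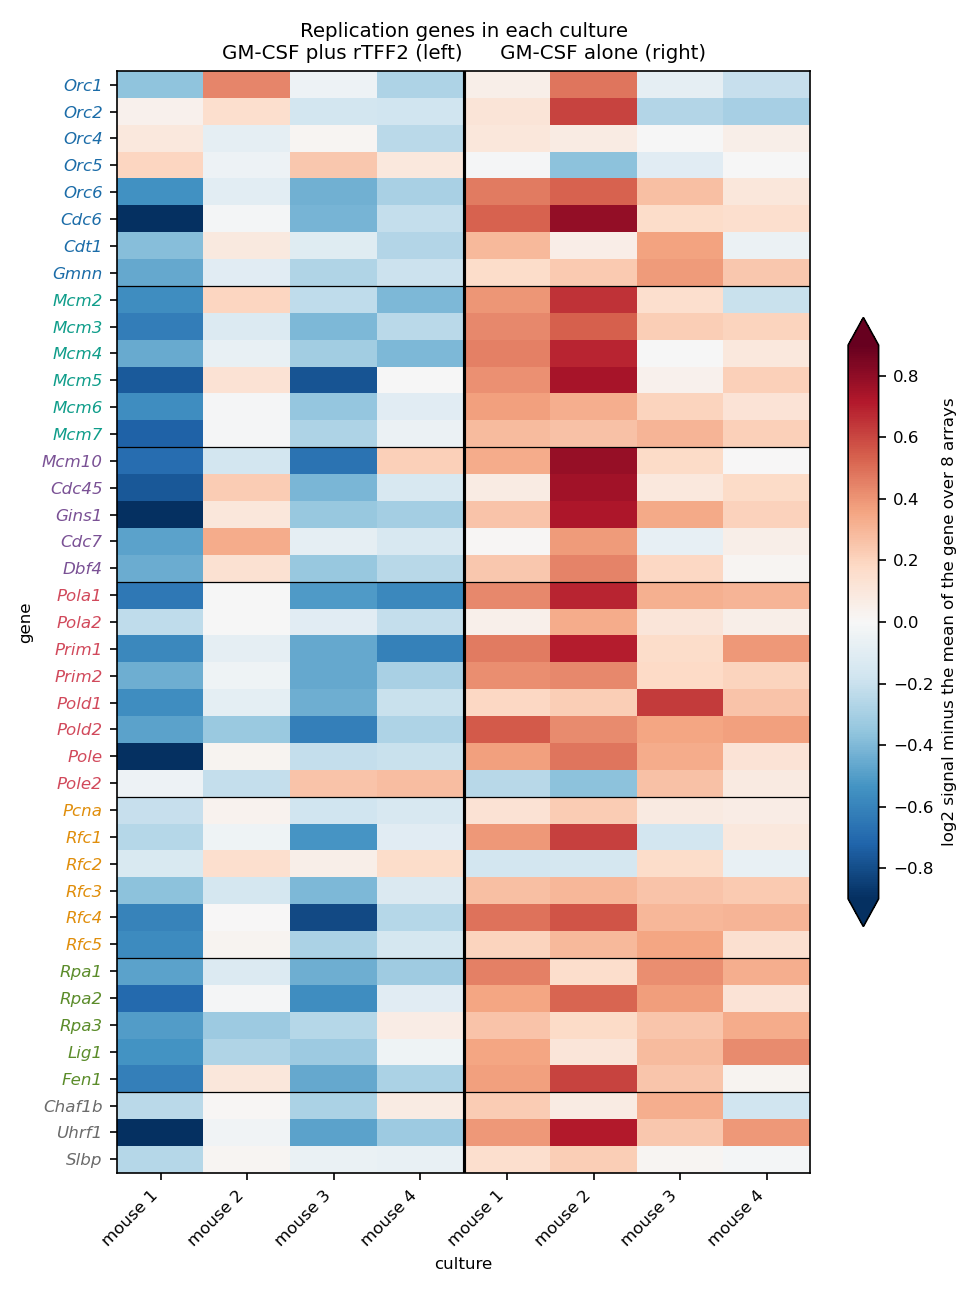
Log2 signal of the 41 measured replication genes in each culture, minus the mean of the gene over the 8 arrays (colour scale in log2 units, blue lower and red higher), with rTFF2 cultures on the left, GM-CSF cultures on the right and lines between roles. The rTFF2 columns are mostly blue, deepest in mouse 1, and rows such as *Orc2*, *Pole2* and *Rfc2* show no such contrast.

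Nearly all members were measured well above background. A background level of 3.07 on the log2 scale was taken from 38 genes of other tissues, of which 3 were lower and 0 higher with rTFF2, and 40 of the 41 members lay above it on all 8 arrays, *Orc1* on 6. Among genes above it 18.4% fell. Signals are GCRMA values in log2 units, and a difference of 1 is a 2-fold change. A level of one gene cannot be set against that of another, since probes differ in brightness. In cultures of whole populations, fewer cycling cells and less RNA per cell cannot be told apart.

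Other facts of the arrays, some of which moved with the groups, stand beside these counts. For the marker lists that follow, 14.5% of all genes were higher with rTFF2 and 13.3% lower. The *Tff2* probe set was under background on all 8 arrays (2.22 to 2.31 with rTFF2, 2.37 to 2.62 with GM-CSF alone). *Itgam*, which encodes CD11b, was bright in every culture, at 12.56 to 12.87 with rTFF2 and 12.14 to 12.54 with GM-CSF alone. Of 13 measured neutrophil genes (15 listed) 13 were higher with rTFF2, with a summed level of 16.42 to 16.66 against 15.15 to 16.10 on the log2 scale. Of 10 genes of mast cells and basophils (11 listed) 7 were higher, at 12.06 to 12.93 against 7.69 to 9.0, while *Mcpt4*, *Cma1* and *Tpsb2* were at background. Of 13 dendritic cell and MHC class II genes (14 listed) 11 were lower, at 12.98 to 13.53 against 14.77 to 15.15, with *Flt3*, *Xcr1* and *Cd209a* at background. The 11 include *Cd209a*. Of 10 macrophage genes 5 were higher, at 15.54 to 15.74 against 15.10 to 15.46, with *Marco* at background. Of 8 progenitor genes 6 were higher and 1, *Cd34*, was lower, at 11.15 to 11.71 against 9.92 to 10.50, with *Gata1* and *Meis1* at background. The 6 include *Gata1*, and *Kit*, which is also counted with mast cells and basophils. Genes of T and NK cells (1 of 10 measured above background, 12 listed), B cells (1 of 7, 8 listed) and erythroid cells (1 of 7, 9 listed) were nearly all at background. Of the 10 measured T and NK genes 2 were lower, *Cd8a* and, at background, *Cd5*, near the 13.3% of all genes. The summed level of the T and NK list was 5.72 to 5.79 against 5.85 to 6.07. The 3′ minus 5′ difference of *Actb*, a sign of RNA quality, was 0.70 ± 0.05 with rTFF2 and 0.53 ± 0.09 with GM-CSF alone (log2, SD, n = 4 each), and that of *Gapdh* was 0.26 ± 0.04 and 0.22 ± 0.07, with groups that overlapped. Array medians were 4.15 to 4.21 against 4.10 to 4.13. With that *Actb* difference as a covariate beside the mouse block, 3 members passed as lower, *Pola1*, *Prim1* and *Rpa1*, where 3.95% of all genes did. The members' median was then -0.55. The *Actb* differences did not overlap between the groups (0.66 to 0.74 with rTFF2, 0.42 to 0.62 with GM-CSF alone). The fit with this covariate therefore cannot separate RNA quality from rTFF2. The part of these markers and of RNA quality in the result was not tested.

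**Figure D2:**
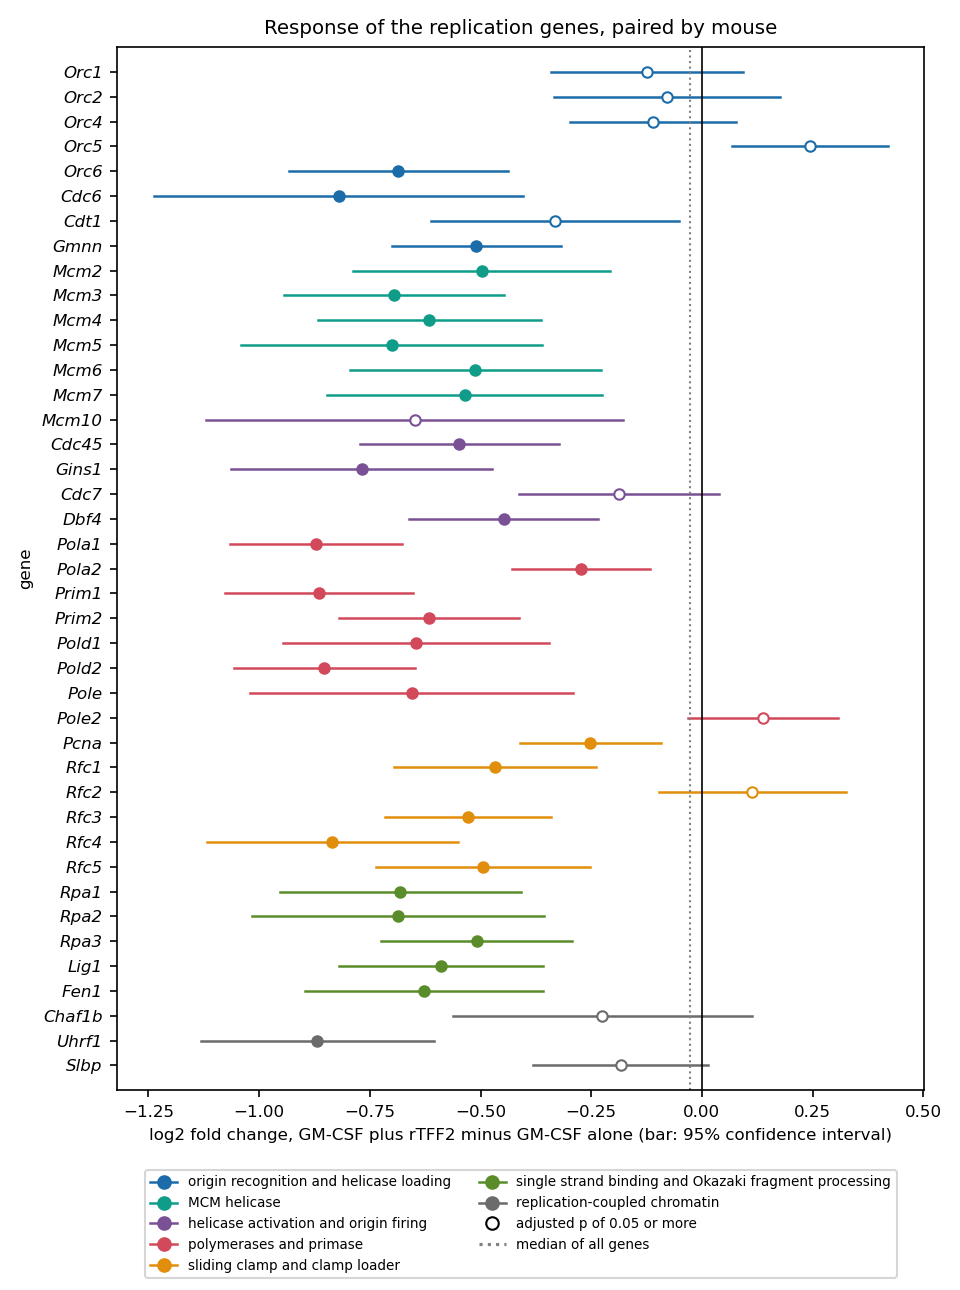
Log2 fold change of each measured replication gene (rTFF2 cultures minus GM-CSF cultures) with 95% confidence intervals from limma with mouse as a block, colored by role and filled where the adjusted p was under 0.05 (n = 4 mice). The polymerase and primase genes reach -0.87, and *Orc5*, *Pole2* and *Rfc2* are the only members right of 0.

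Because the members fell together, their promoters were read for words of the E2F type, shown here to let the letters be seen beside the values. RefSeq windows of 250 bases before the start of transcription (GRCm38.p6) were at hand for 35 of the 41 measured members. The words searched on both strands were TTTGGCGC, TTTCGCGC, TTTCCCGC and TTTGCCGC. Such a word stood in 8 of 35 members (22.9%), namely *Orc1*, *Cdc6*, *Mcm5*, *Mcm6*, *Mcm7*, *Pola1*, *Rfc3* and *Uhrf1*, and in 2.16% of all 27025 genes with a window (3.37% of 9887 genes on the array). It stood in 7 of 25 members that fell and in 1 of 10 that did not pass, *Orc1*. The CCAAT box, written CCAAT, stood in 22 of 35 members (62.9%), 37.5% of all genes and 39.9% of those on the array. The CHR element, written TTTGAA, stood in 5 of 35 (14.3%), 18.3% of all genes and 13.8% of those on the array. The members were chosen for a shared function, so these shares describe the list, and a match is a word in the sequence and not a shown binding site. The stretches below lie outside the annotated gene and give E2F words in capitals. *Mcm5* (chr8:75109301-75109422, plus strand, bases -208 to -87 from the start) holds 2 overlapping words on opposite strands, *Mcm6* (chr1:128359706-128359870, minus strand, bases -165 to -1) holds 3, of which 2 overlap, and *Rfc3* (chr5:151651209-151651273, minus strand, bases -65 to -1) holds 1. *Mcm6* was added here after its values were seen.
Mcm5: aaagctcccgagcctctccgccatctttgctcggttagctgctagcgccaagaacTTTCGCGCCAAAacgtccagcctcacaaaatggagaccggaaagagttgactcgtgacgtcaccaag
Mcm6: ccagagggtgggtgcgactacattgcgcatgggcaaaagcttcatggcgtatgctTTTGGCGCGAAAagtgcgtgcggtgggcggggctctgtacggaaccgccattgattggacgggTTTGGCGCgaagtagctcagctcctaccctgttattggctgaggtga
Rfc3: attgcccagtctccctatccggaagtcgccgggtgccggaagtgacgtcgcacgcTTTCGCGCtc

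Of the 8 genes of origin recognition and helicase loading, 3 fell, *Orc6*, *Cdc6* and *Gmnn*, where 13.3% of all genes did. The median log2 fold change of the 8 was -0.23. *Orc6*, a subunit of the origin recognition complex, had log2 signals of 8.19, 8.64, 8.30 and 8.44 in the rTFF2 cultures of mice 1 to 4, against 9.20, 9.27, 9.01 and 8.84 in the GM-CSF cultures of the same mice. Every rTFF2 culture lay under every GM-CSF culture. *Orc6* fell by 0.69 log2 units (standard error 0.10, adjusted p = 0.0039), 1.61-fold lower. The other measured subunits of the complex did not pass, with log2 fold changes of -0.12 for *Orc1*, -0.08 for *Orc2*, -0.11 for *Orc4* and 0.24 for *Orc5*. *Orc2* had 6.27, 6.38, 6.07 and 6.06 with rTFF2 and 6.34, 6.84, 5.97 and 5.93 with GM-CSF alone, so its groups overlapped and mice 3 and 4 went the other way from mice 1 and 2 (95% confidence interval of the difference -0.33 to 0.18, adjusted p = 0.64). *Orc5* was the one member higher in 4 of 4 mice (interval 0.07 to 0.42, adjusted p = 0.051), and over the alternatives its adjusted p was 0.040 to 0.65, under the threshold in 3 of 14. Whether *Orc6* and *Orc5* differ in response was not tested.

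*Cdc6*, the ATPase that joins the origin recognition complex to bring in the MCM ring, had 6.84, 7.82, 7.42 and 7.63 in the rTFF2 cultures of mice 1 to 4 and 8.37, 8.63, 8.0 and 7.99 with GM-CSF alone. The groups did not overlap, and the rTFF2 culture of mouse 1 was far under the other 3. *Cdc6* fell by 0.82 (standard error 0.18, adjusted p = 0.015). *Gmnn*, which encodes geminin, the inhibitor of Cdt1, had 9.69, 10.05, 9.88 and 9.96 with rTFF2 and 10.31, 10.38, 10.53 and 10.39 with GM-CSF alone, again with no overlap. It fell by 0.51 (standard error 0.081, adjusted p = 0.0046), so a loading factor and the inhibitor of loading were both lower. For *Cdt1*, the target of geminin, the mean difference was -0.33, short of the threshold (interval -0.61 to -0.05, adjusted p = 0.084). It was higher by 0.03 in mouse 2 and lower in the other 3 mice, and it passed without mouse 2 (adjusted p = 0.031) but not without another (0.14 to 0.27). With all mice its adjusted p was 0.046 to 0.21 over the alternatives.

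All 6 subunits of the MCM helicase fell, where 13.3% of all genes did. The 6 had a median log2 fold change of -0.58, and each was lower in 4 of 4 mice. *Mcm3* had 9.53, 10.03, 9.75 and 9.91 with rTFF2 in mice 1 to 4 and 10.59, 10.70, 10.38 and 10.35 with GM-CSF alone. *Mcm4* had 10.18, 10.56, 10.31 and 10.22 with rTFF2 and 11.08, 11.31, 10.62 and 10.72 with GM-CSF alone. In these 2 genes the groups did not overlap. *Mcm3* fell by 0.70 (standard error 0.11, adjusted p = 0.0038) and *Mcm4* by 0.62 (standard error 0.11, adjusted p = 0.0066). *Mcm5* had 7.31, 8.19, 7.28 and 8.06 with rTFF2 and 8.47, 8.80, 8.10 and 8.27 with GM-CSF alone. The rTFF2 cultures of mice 1 and 3 stood apart from those of mice 2 and 4, and the groups overlapped. *Mcm5* fell by 0.70 (standard error 0.14, adjusted p = 0.012), and without pairing by mouse it did not pass (adjusted p = 0.062). *Mcm2* had 7.14, 7.90, 7.48 and 7.30 with rTFF2 and 8.10, 8.35, 7.85 and 7.50 with GM-CSF alone. The groups overlapped, with mouse 2 highest in each and mouse 4 lowest with GM-CSF alone. Within mice it fell by 0.50 (standard error 0.12, adjusted p = 0.025), and unpaired it did not pass (adjusted p = 0.12).

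*Mcm6* and *Mcm7* completed the ring, with log2 fold changes of -0.51 and -0.54 (adjusted p = 0.021 and 0.024) and no overlap between groups. For *Mcm7* the 4 GM-CSF cultures lay within 10.78 to 10.87, while the rTFF2 cultures spread over 9.84 to 10.56 with mouse 1 lowest. *Mcm6* and *Mcm7* did not pass without mouse 1 or without mouse 3, *Mcm5* did not without mouse 3, and *Mcm2* passed only without mouse 4 (adjusted p 0.030 without mouse 4 and 0.054 to 0.066 without another). Every further probe set of the ring above background was lower too. *Mcm6* had a second one at -0.83, and *Mcm7* had 3 others at -1.07, -0.90 and -0.79, all of which passed. The main probe sets of *Mcm3*, *Mcm4*, *Mcm7* and *Pold1* are of kinds that may share probes with other transcripts. So are several of the further probe sets, such as the second one of *Mcm6*. The second probe set of *Mcm4*, not of such a kind, gave -0.46 (adjusted p = 0.017).

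Of 5 measured genes of helicase activation and origin firing, 3 fell (13.3% of all genes did), with a median of -0.55. *Gins1*, a subunit of the GINS complex, had 6.20, 7.30, 6.85 and 6.89 with rTFF2 in mice 1 to 4, against 7.45, 7.92, 7.54 and 7.40 with GM-CSF alone. The rTFF2 culture of mouse 1 was well under the other 3, and the groups did not overlap. *Gins1* fell by 0.77 (standard error 0.12, adjusted p = 0.0050). *Cdc45*, the partner of GINS on the helicase, had 4.84, 5.83, 5.19 and 5.46 with rTFF2 and 5.68, 6.36, 5.70 and 5.77 with GM-CSF alone. Mouse 2 was the highest in each group, so the groups overlapped while each mouse was lower with rTFF2. *Cdc45* fell by 0.55 (standard error 0.095, adjusted p = 0.0066), and it did not pass unpaired (adjusted p = 0.11).

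Of the 2 subunit genes of the kinase that fires origins, 1 passed as lower. *Dbf4*, the regulatory subunit, had 9.30, 9.88, 9.40 and 9.49 with rTFF2 and 9.98, 10.18, 9.93 and 9.76 with GM-CSF alone, with the rTFF2 culture of mouse 2 above the GM-CSF culture of mouse 4. It fell by 0.45 (standard error 0.091, adjusted p = 0.012). *Cdc7*, the catalytic subunit, had 5.23, 6.04, 5.63 and 5.56 with rTFF2 and 5.72, 6.09, 5.64 and 5.76 with GM-CSF alone. Lower values were seen in each mouse, but the difference was -0.05 in mouse 2 and -0.01 in mouse 3. *Cdc7* did not pass (interval -0.41 to 0.04, adjusted p = 0.20). Whether *Dbf4* and *Cdc7* differ in response was not tested. *Mcm10*, a factor needed to activate the helicase, averaged a difference of -0.65, short of the threshold (adjusted p = 0.053). Mice 1 to 3 differed by -1.02 to -0.84 and mouse 4 by 0.21, and without mouse 4 it passed (log2 fold change -0.94, adjusted p = 0.0031), while without another mouse it did not (adjusted p = 0.15 to 0.18). With all mice it passed in 6 of the alternatives, such as quantile normalization (adjusted p = 0.035) and the filter on dim probe sets (0.048). Loading, ring and activation genes, counted together and called licensing genes in the counts from here on, had 12 of 19 measured that fell. Of all genes 13.3% did. The count of 12 was 9 unpaired, where 11.2% of all genes fell, and 7 without mouse 3, where 8.03% did.

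**Figure D3:**
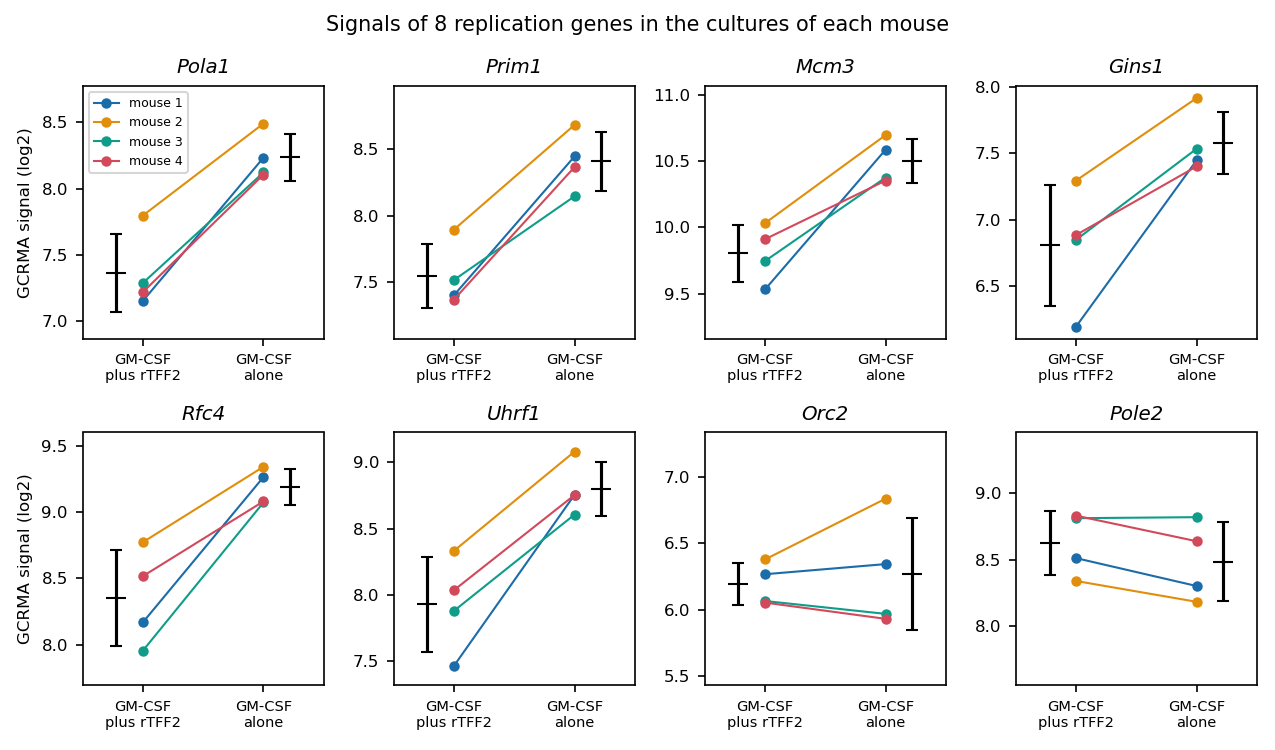
Log2 signal of 8 replication genes in the rTFF2 culture (left) and the GM-CSF culture (right) of each mouse, joined by a line, with mean and SD of n = 4 as bars beside the points. The lines of *Pola1*, *Prim1*, *Mcm3*, *Gins1*, *Rfc4* and *Uhrf1* all lie lower with rTFF2, while those of *Orc2* and *Pole2* do not share a direction.

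The smallest adjusted p-values among the members belonged to polymerase and primase genes. Of these 8 genes 7 fell (13.3% of all genes did), with a median log2 fold change of -0.65. *Pola1*, the catalytic subunit of the polymerase that starts each new strand, had 7.15, 7.80, 7.29 and 7.22 with rTFF2 in mice 1 to 4 and 8.23, 8.49, 8.12 and 8.10 with GM-CSF alone. Mouse 2 was the highest in each group, and no rTFF2 culture reached a GM-CSF culture. *Pola1* averaged 7.37 ± 0.29 with rTFF2 and 8.24 ± 0.18 with GM-CSF alone (SD, n = 4 mice each), 1.83-fold lower (log2 fold change -0.87, standard error 0.082, adjusted p = 6.8e-04). *Prim1*, the primase subunit that makes the RNA primer, had 7.40, 7.90, 7.52 and 7.37 with rTFF2 and 8.45, 8.68, 8.15 and 8.37 with GM-CSF alone. Here too the groups were apart, by the widest margin in mouse 1. It fell by 0.86 (standard error 0.090, adjusted p = 9.3e-04), and its second probe set by 0.92 (adjusted p = 0.0012). *Pold2*, an accessory subunit of the lagging strand polymerase delta, had 6.06, 6.21, 5.93 and 6.26 with rTFF2 and 7.10, 6.97, 6.90 and 6.91 with GM-CSF alone. All 4 GM-CSF cultures lay close together and well over the rTFF2 cultures. *Pold2* fell by 0.85 (standard error 0.087, adjusted p = 8.8e-04).

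Of the other partners, *Prim2* fell by 0.62, the catalytic subunit gene *Pold1* by 0.65, *Pole*, which encodes the catalytic subunit of the leading strand polymerase, by 0.66, and *Pola2* by 0.27 (adjusted p = 0.0028, 0.011, 0.021 and 0.023). The fall of *Pola2* was the least stable of these, since it did not pass unpaired (adjusted p = 0.054) or when any one mouse was left out. *Pole2*, the second subunit of polymerase epsilon, had 8.51, 8.34, 8.81 and 8.83 with rTFF2 in mice 1 to 4 and 8.30, 8.18, 8.82 and 8.64 with GM-CSF alone. Values were higher in mice 1, 2 and 4 and differed by -0.01 in mouse 3, and mice 3 and 4 were above mice 1 and 2 in each group. *Pole2* did not pass (log2 fold change 0.14, interval -0.03 to 0.31, adjusted p = 0.21). The intervals of *Pole* (-1.02 to -0.29) and *Pole2* did not overlap, but their difference was not tested.

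Of the 6 genes of the sliding clamp and its loader, 5 fell (13.3% of all genes did), with a median of -0.48. *Pcna*, the clamp that holds polymerases on DNA, fell by 0.25 (adjusted p = 0.033), the smallest change among members that passed, and it did not pass when any one mouse was left out (adjusted p 0.062 to 0.13). *Rfc4* had 8.17, 8.77, 7.96 and 8.52 with rTFF2 in mice 1 to 4, against 9.26, 9.34, 9.07 and 9.08 with GM-CSF alone. The rTFF2 cultures of mice 1 and 3 were lowest, and the groups were apart. *Rfc4* fell by 0.83 (standard error 0.12, adjusted p = 0.0031). *Rfc3* had 6.95, 7.17, 6.92 and 7.20 with rTFF2 and 7.59, 7.62, 7.58 and 7.56 with GM-CSF alone, where all 4 cultures were nearly equal. It fell by 0.53 (standard error 0.080, adjusted p = 0.0037), and *Rfc5* fell by 0.49 (adjusted p = 0.013).

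The large loader subunit gave a less even picture. *Rfc1* had 7.99, 8.21, 7.71 and 8.14 with rTFF2 and 8.64, 8.86, 8.09 and 8.34 with GM-CSF alone. Mouse 3 was lowest in each group, so the groups overlapped. By its main probe set *Rfc1* fell by 0.47 (standard error 0.097, adjusted p = 0.013), but not unpaired (adjusted p = 0.084), and its other probe sets, at 0.17 and -0.17, were short of the threshold. *Rfc2* had 7.58, 7.86, 7.77 and 7.88 with rTFF2 and 7.55, 7.56, 7.88 and 7.65 with GM-CSF alone. Mouse 3 differed in direction from the other 3, and the difference did not pass (log2 fold change 0.11, interval -0.10 to 0.32, adjusted p = 0.40). The clamp and loader count of 5 was 2 without mouse 1, where 8.05% of all genes fell. It was 3 without mouse 3, where 8.03% of all genes did.

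All 5 genes of single strand binding and Okazaki fragment processing fell (13.3% of all genes did), with a median of -0.63. *Lig1*, the ligase that seals lagging strand nicks, had 5.91, 6.18, 6.12 and 6.41 with rTFF2 in mice 1 to 4 and 6.80, 6.56, 6.74 and 6.87 with GM-CSF alone. The groups did not overlap, although the rTFF2 culture of mouse 4 came near the lowest GM-CSF culture. *Lig1* fell by 0.59 (standard error 0.098, adjusted p = 0.0055), and *Fen1*, the flap nuclease that trims fragments before ligation, by 0.63 (adjusted p = 0.0077) with overlapping groups. Among the subunits of RPA, *Rpa1* had 10.57, 10.93, 10.62 and 10.74 with rTFF2 and 11.51, 11.21, 11.47 and 11.38 with GM-CSF alone. *Rpa2* had 7.32, 8.01, 7.47 and 7.92 with rTFF2 and 8.38, 8.54, 8.40 and 8.14 with GM-CSF alone. *Rpa3* had 9.11, 9.28, 9.35 and 9.68 with rTFF2 and 9.87, 9.78, 9.86 and 9.94 with GM-CSF alone. In each of the 3 the groups were apart, with mouse 1 lowest with rTFF2. The log2 fold changes were -0.68 for *Rpa1*, -0.69 for *Rpa2* and -0.51 for *Rpa3* (standard errors 0.12, 0.14 and 0.092, adjusted p = 0.0060, 0.012 and 0.0075).

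Of 3 measured genes of replication-coupled chromatin, 1 fell, where 13.3% of all genes did. *Uhrf1*, whose product reads hemimethylated DNA behind the fork and brings in the maintenance methyltransferase, had 7.47, 8.33, 7.88 and 8.04 with rTFF2 in mice 1 to 4, against 8.75, 9.08, 8.61 and 8.75 with GM-CSF alone. The groups were apart, and mouse 1 had the widest difference. *Uhrf1* averaged 7.93 ± 0.36 with rTFF2 and 8.80 ± 0.20 with GM-CSF alone (SD, n = 4 mice each), 1.83-fold lower (log2 fold change -0.87, standard error 0.11, adjusted p = 0.0020). *Chaf1b*, a subunit of the chaperone that deposits histones on new DNA, had 4.56, 4.81, 4.52 and 4.87 with rTFF2 and 5.03, 4.88, 5.13 and 4.62 with GM-CSF alone. Mice 1 and 3 were lower, mouse 2 nearly equal and mouse 4 higher with rTFF2, and it did not pass (interval -0.56 to 0.11, adjusted p = 0.30). *Slbp*, which binds the stem-loop of histone mRNAs, had 11.01, 11.29, 11.21 and 11.20 with rTFF2 and 11.42, 11.49, 11.28 and 11.25 with GM-CSF alone. Differences were in one direction in all mice but small in mice 3 and 4, and *Slbp* did not pass (interval -0.38 to 0.01, adjusted p = 0.16).

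The size of the response differed between mice more than its direction did. The members' median difference within a mouse was -0.86 in mouse 1, -0.46 in mouse 2, -0.58 in mouse 3 and -0.29 in mouse 4, with 38, 37, 37 and 35 of 41 members lower. The median of all genes was between -0.02 and -0.01 in each mouse. Mouse 1 thus carried the deepest difference and mouse 4 the shallowest. Of the 30 members that passed, 24 fell most in mouse 1 and 19 fell least in mouse 4. The median member signal of an array was 7.47 to 8.01 with rTFF2 and 8.12 to 8.63 with GM-CSF alone. The falls of *Pola1*, *Prim1* and *Rpa1* passed in every one of the 14 alternatives run.

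**Figure D4:**
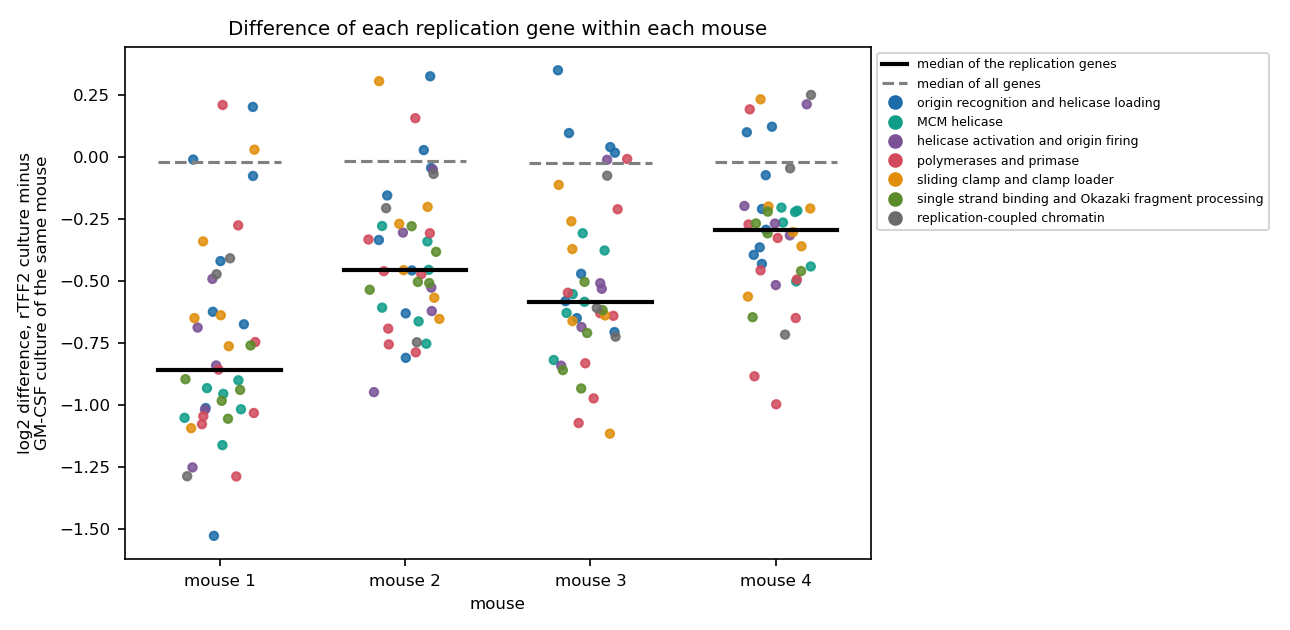
Log2 difference of each measured replication gene within each of the 4 mice, rTFF2 culture minus GM-CSF culture, 1 point per gene colored by role, with the median of the members (solid line) and of all genes (dashed line). The members' medians are -0.86, -0.46, -0.58 and -0.29 for mice 1 to 4, while the medians of all genes lie near 0.

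Other probe sets of the same genes were read as a further view of the same RNA. For 23 members there were 32 further probe sets, 26 of them above background. Of these 26, 18 were lower, 1 was higher and 7 did not pass. Among all 22626 probe sets 5811 passed, and 46.7% of those 5811 were lower. Of the 20 further probe sets above background that belonged to members called lower, 18 were lower, and the other 2 were those of *Rfc1*. The 1 further probe set that was higher belonged to *Orc4* (log2 fold change 0.31, adjusted p = 0.023). Its other further probe set, at 0.26, did not pass (adjusted p = 0.092). The main probe set of *Orc4* had -0.11 (adjusted p = 0.36), so the direction for *Orc4* depended on the probe set. Those of *Orc2*, *Cdt1* and *Cdc7* above background did not pass, as with their main probe sets.

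A list of 37 other genes of the fork, of which 27 were measured, held 13 that were lower (13.3% of all genes were), 1 that was higher (14.5% of all genes were) and 13 that did not pass, with a median of -0.31. No test compared this list with the members. The smallest p belonged to *Dna2*, a nuclease and helicase that processes flaps, which was 2.09-fold lower (log2 fold change -1.06, adjusted p = 5.8e-04). *Ung*, which removes uracil from DNA, had -1.52, *Topbp1*, a factor of origin firing and checkpoint signaling, -0.48, and *Dtl*, which marks Cdt1 for degradation, -0.60 (adjusted p = 0.0013, 0.0065 and 0.0073). *Asf1b*, a histone chaperone, had -0.92 and *Tipin*, of the fork protection complex, -0.48 (adjusted p = 0.0080 and 0.010). The 1 gene in the other direction, named after its value was seen, was *Donson*, a replisome component, with 0.30 (adjusted p = 0.029), which did not pass unpaired (adjusted p = 0.14). Least changed by p were *Mcm9*, at background, *Mcmbp* (0.05) and the origin recognition subunit gene *Orc3* (0.07).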

How the data were processed

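RNA of 8 cultures from 4 mice was hybridized to Affymetrix mouse expression arrays. The authors deposited log2 values from GCRMA (GCRMA 2.30.0 and affy 1.36.0 in the submitters' processing notes), which corrects background by probe sequence, normalizes the arrays to 1 distribution and summarizes probes. They were not renormalized, and fold changes of dim genes depend on that correction. Groups and mouse numbers came from the labels.

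The test was limma 3.58.1 under R 4.3.3, by lmFit and eBayes, on 22626 of 22690 probe sets, 64 controls left out, with mouse as a block and Benjamini-Hochberg adjustment over all of them at 0.05. The methods name limma without a model. The annotation gave 20380 probe sets a single symbol, 691 more than 1 and 1555 none. The background level was the 95th percentile of the group means of 38 measured genes of other tissues (42 listed). The 4 arrays per group limit the precision of every value.

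The members and gene lists were chosen with earlier results of these data known. Values of every culture are given for the 3 members of each role with the smallest p and the one with the largest. Of the other fork genes, up to 6 that passed and 3 that did not are named, by p, and *Donson* besides.

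Numbers pair the cultures because the labels give an animal number to a culture of each group and, by the methods, a mouse's cells were divided. As a check on 13763 probe sets above background, residuals after the group means correlated at 0.05, 0.53, 0.31 and 0.39 between the cultures of mice 1 to 4 and at -0.54 to 0.33 between mice. A fit without the block, other normalizations, filters, priors, weights and thresholds, and leaving out each mouse, were tried as alternatives. The fit was also run on simulated data. Far fewer probe sets changed there than were called here, so that run does not vouch for these counts. Promoters were RefSeq windows of GRCm38.p6, and *Gins2* and *Chaf1a* were not analysed here.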

Additional observations from a re-analysis of the deposited data

Results flagged for a closer look

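In 123 sets of 4 values, namely the rTFF2 cultures, the GM-CSF cultures and the differences within mice of the 41 measured members, 4 held a value whose gap to its nearest neighbor exceeded, as a share of the whole range, Dixon's 95% critical value. Chance flags about 1 in 20 such sets. The difference of *Mcm10* was 0.21 in mouse 4, against -1.02 to -0.84 in the other mice. The GM-CSF culture of mouse 2 had a *Cdc45* signal of 6.36, against 5.68 to 5.77 in the other GM-CSF cultures. The GM-CSF culture of mouse 3 had a *Pold1* signal of 9.23, against 8.78 to 8.85. The difference of *Uhrf1* was -1.29 in mouse 1, against -0.75 to -0.72 in the other mice.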

How the results depend on the processing

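The members' median stayed between -0.63 and -0.44 in all 14 alternatives, and *Pola1*, *Prim1* and *Rpa1* passed in each. The count of lower members was 25 with no replicate block (*Mcm2*, *Mcm5*, *Cdc45*, *Pola2* and *Rfc1* no longer passed), 22 with an offset of 32 on the linear scale, and 29 to 32 with the filter on dim probe sets, quantile normalization, median centring, a trended and robust prior, array weights or the mean of probe sets. Of all genes, 11.2% were lower with no block, 9.36% with the offset and 12.7% to 18.9% in the other fits just named. Without the block, licensing (loading, ring and activation together), polymerase and clamp genes counted 9, 6 and 4 lower, against 12, 7 and 5. With the 3′ minus 5′ difference of *Actb* as a covariate beside the replicate block, lower members numbered 3 (licensing 0, polymerases 2, clamp 0), and 1588 of all probe sets passed, against 5811. Of all genes 3.95% were then lower, against 13.3% in the main fit, and these probe set counts hold both directions. The cause of the drop was not tested. At a threshold of 0.01 lower members numbered 17 (licensing 6, polymerases 4, clamp 2), and 6.31% of all genes were lower. In both directions 2906 probe sets passed, fewer by construction of the threshold. With the offset, licensing genes numbered 7. The count of higher members was 1, *Orc5*, with the dim filter, the offset and the mean of probe sets. Leaving out both cultures of a mouse gave 20 to 29 lower members (20 without mouse 3, 23 without mouse 1) and 0 higher, licensing 7 to 13, polymerases 5 to 6, clamp 2 to 4, and medians of -0.63 to -0.45, with 3609 probe sets called without mouse 1 and 3791 without mouse 3. In the fits without a mouse, 8.03% to 11.4% of all genes were lower. Directions turned for 3 members that had not passed. *Orc2* was 0.351 with the covariate, 0.0476 without mouse 2 and down to -0.146 without mouse 4, *Orc4* was 0.15 as the mean of probe sets, and *Rfc2* was -0.0450 with the covariate. After median centring the median of all genes was -0.08, and 57.7% of called probe sets were lower, against 46.7% before.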
